A study of Mus musculus with 2 samples.

Results

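Sst, Npy, Cck, Vip, Tac1, Penk, Pdyn, Crh, Cort and Pnoc are neuropeptide genes known from neurons of the cerebral cortex. They were chosen by name, and all 10 were found once each among the 55536 annotated genes of the deposited tables. Their RNA was measured by total RNA-seq, which reads all RNA classes after ribosomal RNA has been reduced, in left cerebral cortex from 2 male mice. Both mice were 4 days old and of strain B6CASTF1/J, an F1 hybrid of C57BL/6 and CAST mice from The Jackson Laboratory. Each mouse gave 1 library from 300 ng of RNA with ERCC spike-ins, synthetic control RNAs added in known amounts. The libraries are called replicate 2 and replicate 1, as the labels number them.

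There was 1 group, so no treatment, genotype or age was compared, and differences between animals, dissections and library preparation cannot be told apart. The labels number the animals differently but give both the same donor identifier, so p-values speak only of these 2 tissue samples, whose differences may be technical. Depth was 29511737 expected counts for replicate 2 and 26897687 for replicate 1. Across genes the libraries differed beyond sampling noise, with a chi-square of 177029 for 20384 degrees of freedom. Counting error therefore covers only part of the distance between them. Reads of the CAST allele were set against the mm10 reference of C57BL/6, and how fully they were counted was not tested. The tissue was bulk cortex, so fewer cells of a type and less RNA per cell cannot be told apart.

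A neuropeptide is made as a longer precursor protein that enters dense core vesicles, where convertases cut it at pairs of basic residues. The freed peptides are released by activity and act on G protein-coupled receptors. In the cortex many of these genes mark classes of GABAergic interneurons: Sst, Npy and Cort lie in overlapping classes, Vip and Crh in others, and Cck in both interneurons and excitatory neurons. Penk, Pdyn and Pnoc descend from 1 opioid precursor family, and Penk, Pdyn and Tac1 are also the classic peptide genes of striatal projection neurons.

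The precursors of the family pairs resemble each other over short stretches, shown here because reads must separate them before their levels can be compared. The sequences are from mm10 with the GENCODE M21 annotation, 5′ to 3′ along the coding strand. Sst and Cort encode related cyclic peptides at the end of their precursors, and the lines below give the last 15 codons, with capitals for the codons of the 9 residues the precursors share. Sst lies at chr16:23889732-23889776 and Cort at chr4:149125267-149125311, both on the minus strand and both in exon 2 of 2.
Sst: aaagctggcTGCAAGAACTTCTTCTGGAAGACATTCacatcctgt
Cort: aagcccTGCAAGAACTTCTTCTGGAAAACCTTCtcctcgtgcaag

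Of the 27 bases in that shared run, 25 were identical. Across whole transcripts, though, Sst had 691 words of 31 bases and Cort had 647, and none of either occurred in a transcript of another gene. The same was true of Npy, Cck, Tac1, Penk, Pdyn and Crh. Vip shared 14 of its 3380 words and Pnoc 25 of its 2152 words with other genes, which is 0.414% and 1.16%. Words were compared on the transcribed strand only, so an overlapping antisense transcript could not count as sharing them.

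The opioid precursors carry a core of 4 residues, tyrosine or phenylalanine followed by glycine, glycine and phenylalanine, and the tachykinin precursor a core of 5 residues that ends in glycine, leucine and methionine. Capitals mark the codons of these cores in the lines below, and the flanking letters show the basic cleavage codons where they are next to the core. The Penk windows lie at chr4:4134328-4134354 (copy 1, a Met-enkephalin) and chr4:4133935-4133961 (copy 6, the Leu-enkephalin) on the minus strand. Those of Pdyn (chr2:129688232-129688258) and Pnoc (chr14:65404875-65404898) are on the minus strand too. Tac1 copy 1, substance P, lies at chr6:7556732-7556773 and copy 2, neurokinin A, at chr6:7559101-7559139 on the plus strand.
Penk copy 1: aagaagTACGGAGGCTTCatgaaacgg
Penk copy 6: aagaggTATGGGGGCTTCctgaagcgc
Pdyn copy 1: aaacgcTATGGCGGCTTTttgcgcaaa
Pnoc copy 1: aaaaggTTTGGGGGCTTCaccggg
Tac1 copy 1: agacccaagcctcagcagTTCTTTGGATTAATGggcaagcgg
Tac1 copy 2: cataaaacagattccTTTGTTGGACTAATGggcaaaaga

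The complete Penk precursor of 268 residues held 7 opioid cores, 6 followed by methionine and 1 by leucine, with 12 pairs of basic residues. The Pdyn precursor of 248 residues held 3, each followed by leucine, and the Pnoc precursor of 187 residues held 1 nociceptin core, which starts with phenylalanine. The number of peptides per transcript therefore differs between these genes, and RNA levels do not count peptides.

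All 10 neuropeptide genes were detected, which means at least 1 TPM in replicate 2 and in replicate 1, whereas 59.4% of the 22028 protein-coding genes were. Genes known from cortical neurons had been chosen, so their detection follows in part from the choice. TPM, a unit scaled to transcript length and to the library's total, was used for levels so that different genes can be compared. The 10 genes summed to 374.53 TPM in replicate 2 and 334.53 TPM in replicate 1. Sst, Npy and Cck together held 85.4% of that sum in replicate 2 and 90.04% in replicate 1, and the next gene in order had a mean 6.07 times lower than the lowest of them. The mean of the highest gene, Sst, was 95.3 times that of the lowest, Crh. The median of the 10 means was 8.78 TPM, beside 17.62 TPM over the 13084 detected protein-coding genes.

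**Figure D1:**
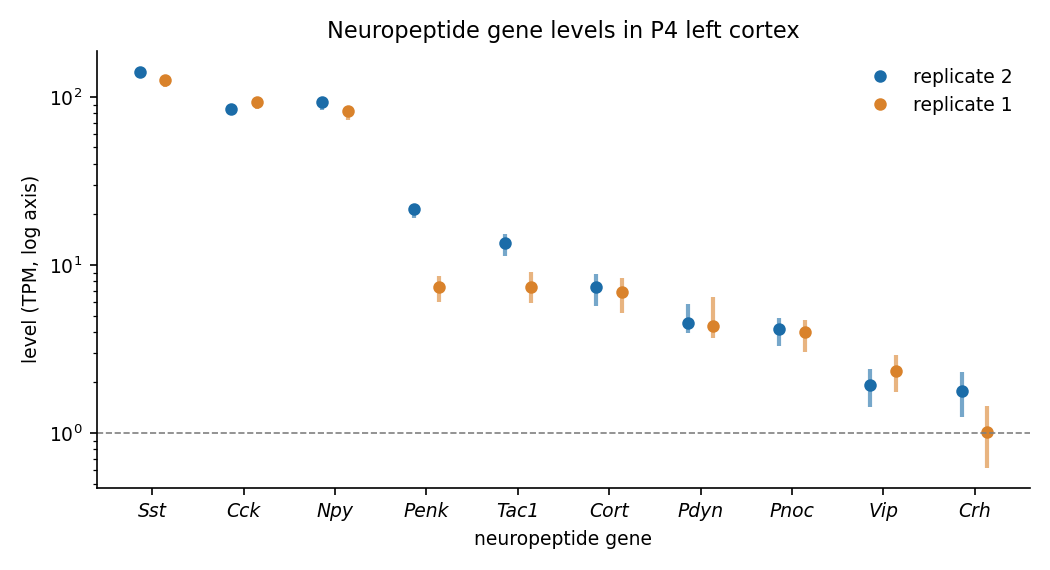
TPM on a log axis for each neuropeptide gene, ordered by mean, with replicate 2 to the left of replicate 1. Bars are the TPM intervals the authors deposited, which cover uncertainty within a library, and the dashed line marks a TPM of 1. Sst, Cck and Npy lie between 82.25 and 141.47 TPM, and Penk has the widest gap between its 2 libraries.

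Sst encodes somatostatin, an inhibitory peptide that marks a large class of interneurons, and it was the highest of the 10. The gene (ENSMUSG00000004366.4) lies at chr16:23889573-23890958 on the minus strand. It had 141.47 TPM in replicate 2 (deposited interval 130 to 143) and 125.49 TPM in replicate 1 (114 to 127). The mean was 133.48 ± 11.3 TPM (SD, n = 2), and 4.99% of detected protein-coding genes had a higher mean. Neither library of Sst overlapped those of the next gene, Cck. Cort encodes cortistatin, which binds the same receptors, from chr4:149125034-149126763 on the minus strand (ENSMUSG00000028971.4). It had 7.36 TPM in replicate 2 (interval 5.68 to 8.78) and 6.91 TPM in replicate 1 (5.18 to 8.34), a mean of 7.135 ± 0.318 TPM. On the log2(TPM + 0.1) scale Sst stood above Cort by 4.25 in replicate 2 and 4.16 in replicate 1, a mean of 4.205 ± 0.059.

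Npy, which encodes neuropeptide Y, and Cck, which encodes cholecystokinin, had nearly the same level. Npy (ENSMUSG00000029819.6) lies at chr6:49822710-49829507 on the plus strand and Cck (ENSMUSG00000032532.7) at chr9:121489824-121495694 on the minus strand. Npy had 93.15 TPM in replicate 2 (interval 84.0 to 96.1) and 82.25 TPM in replicate 1 (73.1 to 85.3). Cck had 85.21 TPM in replicate 2 (interval 77.5 to 89.5) and 93.48 TPM in replicate 1 (84.2 to 98.7). Npy was the higher of the pair in replicate 2 and Cck in replicate 1, so their order is not settled by these libraries. Their means were 87.7 ± 7.71 TPM for Npy and 89.345 ± 5.85 TPM for Cck. Sst stood above Npy by 0.60 in replicate 2 and 0.61 in replicate 1 on the log2 scale, and this was among the steadiest ratios within the set (SD 0.005).

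Vip, the vasoactive intestinal peptide gene of a disinhibitory interneuron class, was at the other end of the order. The gene (ENSMUSG00000019772.5) lies at chr10:5639218-5647617 on the plus strand. It had 1.92 TPM in replicate 2 (interval 1.42 to 2.404) and 2.34 TPM in replicate 1 (1.76 to 2.91), from 58 reads in replicate 2 and 61 in replicate 1, and a mean of 2.13 ± 0.297 TPM. Sst stood above Vip by 6.13 in replicate 2 and 5.69 in replicate 1 on the log2 scale, and Cck above Vip by 5.40 in replicate 2 and 5.26 in replicate 1. Crh (ENSMUSG00000049796.4, chr3:19693401-19695396, minus strand) encodes corticotropin-releasing hormone. It had 1.79 TPM in replicate 2 (interval 1.25 to 2.30) and 1.01 TPM in replicate 1 (0.620 to 1.45), from 42 reads in replicate 2 and 21 in replicate 1, and a mean of 1.40 ± 0.552 TPM. It was the lowest of the 10 in both libraries, and 98.3% of detected protein-coding genes had a higher mean. The Vip and Crh intervals overlapped in replicate 2 and not in replicate 1, and their log2 ratio of 0.10 in replicate 2 and 1.14 in replicate 1 did not exceed 2 SD (mean 0.62 ± 0.74).

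The opioid genes and Tac1 made up the middle of the order. Penk (ENSMUSG00000045573.9) lies at chr4:4133531-4138819 on the minus strand and Tac1 (ENSMUSG00000061762.12) at chr6:7554879-7565834 on the plus strand. Penk, which encodes the enkephalin precursor, had 21.55 TPM in replicate 2 (interval 18.9 to 23.1) and 7.36 TPM in replicate 1 (6.03 to 8.55). Tac1, which encodes substance P and neurokinin A, had 13.44 TPM in replicate 2 (interval 11.3 to 15.4) and 7.41 TPM in replicate 1 (5.93 to 9.03). Both genes were higher in replicate 2, without overlap of their intervals, and their means carry a wide spread: 14.455 ± 10.03 TPM for Penk and 10.425 ± 4.26 TPM for Tac1. Tac1 stood below Penk by a log2 ratio of -0.68 in replicate 2 and was level with it in replicate 1 (0.01), so the 2 genes have no settled order.

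Pdyn, the prodynorphin gene, and Pnoc, the nociceptin gene, were close to each other in both libraries. Pdyn (ENSMUSG00000027400.11) lies at chr2:129686565-129699844 and Pnoc (ENSMUSG00000045731.6) at chr14:65400673-65425472, both on the minus strand. Pdyn had 4.49 TPM in replicate 2 (interval 3.95 to 5.86) and 4.31 TPM in replicate 1 (3.66 to 6.43). Pnoc had 4.15 TPM in replicate 2 (interval 3.29 to 4.86) and 3.97 TPM in replicate 1 (3.05 to 4.68). Both genes differed little between the libraries, with means of 4.40 ± 0.127 TPM for Pdyn and 4.06 ± 0.127 TPM for Pnoc. The Pdyn over Pnoc log2 ratio was 0.11 in replicate 2 and 0.12 in replicate 1, above 2 SD, but the intervals of these genes overlapped in both libraries. That ratio was 0.23 on average and no longer above 2 SD in the other deposited quantification. Penk stood above Pdyn by 2.24 in replicate 2 and 0.76 in replicate 1, and above Pnoc by 2.35 in replicate 2 and 0.87 in replicate 1, so the size of the Penk excess rested on the library and neither mean exceeded 2 SD.

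Along the whole order, 2 neighbouring pairs overlapped between libraries, Cck with Npy and Penk with Tac1. The deposited intervals also overlapped in both libraries for Cort with Pdyn and Pdyn with Pnoc, in replicate 1 for Tac1 with Cort, and in replicate 2 for Vip with Crh. Sst from Cck, Npy from Penk and Pnoc from Vip were the neighbours that separated by every one of these measures. In the other quantification each of the 10 genes had a higher TPM, by a factor between 1.29 (Pnoc) and 1.94 (Cck), where the median over protein-coding genes above 20 TPM was 1.48. Per-gene levels are thus tied to the quantification by up to that much.

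The libraries were then compared gene by gene, to see which neuropeptide genes differed between the 2 cortices by more than counting error. The ratio is replicate 2 over replicate 1 of counts scaled by TMM, a factor that takes most genes as unchanged, and each gene had an exact binomial test, two-sided, with p-values adjusted over 20385 genes by the Benjamini-Hochberg method. It compares these libraries, not conditions. Sst, Npy, Tac1 and Penk were called higher in replicate 2, 0 of the 10 were called lower, and 6 were not called. Over all tested genes 13.9% were called higher and 12.7% lower, so calls in both directions were common between these libraries. The median log2 ratio was 0.23 over the 10 genes and -0.00 over all tested genes.

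Penk had the largest difference. It had 500 reads in replicate 2 and 155 in replicate 1, a log2 ratio of 1.58 ± 0.132 (counting SE; Benjamini-Hochberg adjusted p = 1.04e-35, exact binomial test), or 2.99-fold, and 99.2% of tested genes had a lower ratio. An annotated antisense neighbour, A830012C17Rik, overlaps Penk by 499 bases, and it had 4 reads in replicate 2 and 3 in replicate 1. Tac1 had 213 reads in replicate 2 and 112 in replicate 1, a log2 ratio of 0.82 ± 0.168 (adjusted p = 8.94e-06, same exact test), with 96.6% of tested genes lower. These are the called genes that lay above the 95th percentile of protein-coding genes, which was 0.54. The 5th percentile was -0.50.

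Sst and Npy differed by much less. Sst had 1695 reads in replicate 2 and 1329 in replicate 1, a log2 ratio of 0.25 ± 0.053 (adjusted p = 3.61e-05, exact binomial test). Npy had 838 reads in replicate 2 and 654 in replicate 1, also a log2 ratio of 0.25 ± 0.075 (adjusted p = 0.00454, exact binomial test). Both ratios lay inside the range of most protein-coding genes, and both calls depended on the scaling. With library sizes set by the ERCC spike-ins, the median of all genes moved to -0.15, Sst to 0.10 (adjusted p = 0.144, exact binomial test) and Npy to 0.11 (adjusted p = 0.307). A change of scaling moves all ratios by nearly the same amount, so both genes keep their distance to that median by construction. Spike-in scaling called 3.62% of genes higher and 30.8% lower, and of the 10 it called Penk and Tac1 higher and Cck lower (log2 ratio -0.18, adjusted p = 0.0316, exact binomial test).

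The other 6 genes were not called under TMM scaling. Cck had 905 reads in replicate 2 and 860 in replicate 1, a log2 ratio of -0.03 with a 95% counting interval of -0.17 to 0.10, the narrowest among the uncalled genes. Crh had a log2 ratio of 0.88, as large as that of Tac1, but with 42 reads in replicate 2 and 21 in replicate 1 its interval ran from 0.13 to 1.63 and the adjusted p was 0.0758 by the exact binomial test. The intervals were -0.16 to 0.60 for Pnoc, -0.09 to 0.52 for Pdyn, -0.30 to 0.63 for Cort and -0.69 to 0.34 for Vip. These intervals are wide enough to hold both a ratio of 0 and the Sst ratio of 0.25, so a difference of that size was not detectable in these 4 genes at this depth.

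**Figure D2:**
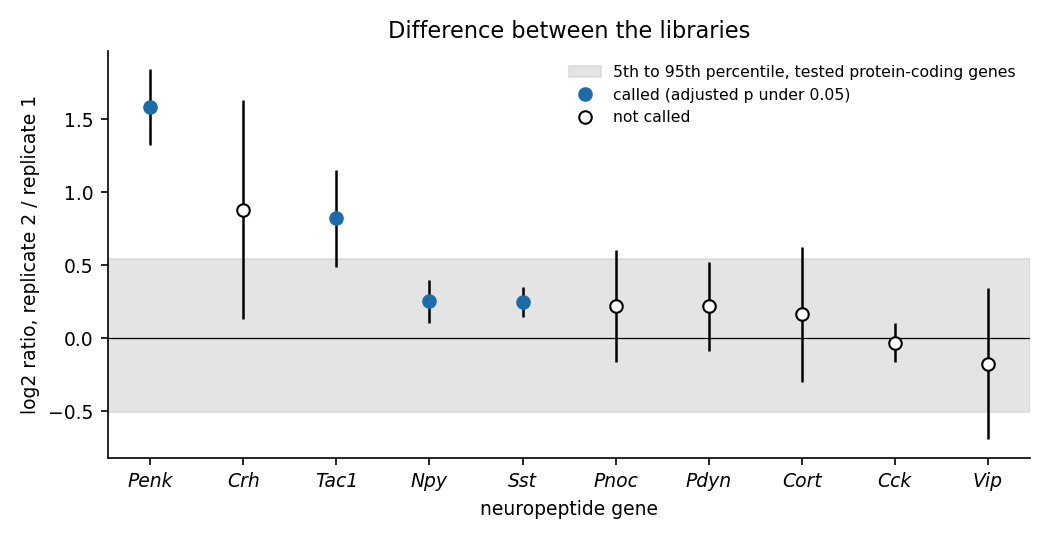
The log2 ratio of replicate 2 over replicate 1 for each neuropeptide gene, with 95% counting intervals as bars. Filled points were called by the exact binomial test, and the grey band spans the 5th to 95th percentile of tested protein-coding genes, -0.50 to 0.54. Penk, Crh and Tac1 lie above the band, and Crh was not called.

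Markers of nearby brain regions and other cells moved between the libraries as well. Earlier results of these data on the olfactory bulb and striatum markers were in part known when the lists were chosen. Their shares of calls are therefore description and no test. Of 9 olfactory bulb markers 8 were called higher in replicate 2, where 13.9% of all tested genes were, and 0 lower, where 12.7% were. Their summed level was 65.9 TPM in replicate 2 and 18.25 TPM in replicate 1. Cdhr1, a cadherin of mitral and tufted cells, had 29.31 TPM in replicate 2 and 5.73 TPM in replicate 1. All 16 striatum markers were detected and 14 were called higher, with sums of 467.99 TPM in replicate 2 and 386.16 TPM in replicate 1. Most of each sum came from Foxp1, Meis2 and Pde10a, with log2 ratios of 0.16, 0.34 and -0.01, and Pde10a was not called. Ppp1r1b (DARPP-32), a defining gene of striatal projection neurons, had 49.77 TPM in replicate 2 and 26.15 TPM in replicate 1, a log2 ratio of 0.94. The median log2 ratios were 1.92 over the olfactory bulb list and 0.42 over the striatum list. Each of the 3 other scalings moves all ratios together by less than either median, so neither direction could turn there. In the other quantification the medians were 1.86 for the olfactory bulb list and 0.45 for the striatum list.

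Interneuron markers apart from the peptides were divided. Of 28 tested, 13 were called higher and 4 lower in replicate 2, beside 13.9% and 12.7% of all tested genes, and the share called lower was thus near that of other genes. The list had sums of 859.97 TPM in replicate 2 and 750.35 TPM in replicate 1. Calb2 (calretinin) had the largest ratio, 1.29 on the log2 scale, from 29.89 TPM in replicate 2 and 12.88 TPM in replicate 1. Dlx1, a transcription factor of forebrain GABAergic neurons, had 45.48 TPM in replicate 2 and 26.12 TPM in replicate 1. Satb1, a transcription factor that Sst interneurons need, was called lower, with 78.74 TPM in replicate 2 and 99.79 TPM in replicate 1. The list median of 0.14 became -0.00 under spike-in scaling, where that of all tested genes was -0.15. There 12 of the 28 were called higher and 8 lower, beside 3.62% and 30.8% of all tested genes. Pvalb, the parvalbumin gene of another interneuron class, had 5 reads in replicate 2 and 3 in replicate 1 and was not detected.

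Excitatory neuron markers had 5 calls in each direction among 15, beside 13.9% of all tested genes called higher and 12.7% lower. Their sums were 1217.47 TPM in replicate 2 and 1293.21 TPM in replicate 1. Slc17a7, the main vesicular glutamate transporter of cortex, had 159.15 TPM in replicate 2 and 133.44 TPM in replicate 1. This defining gene of cortical excitatory neurons was thus abundant in both libraries. Hypothalamus and amygdala markers summed to 22.43 TPM in replicate 2 and 14.49 TPM in replicate 1, and 2 of 5 tested were called higher and 0 lower, with a median log2 ratio of 0.92. These were Zic1, with 16.87 TPM in replicate 2 and 10.72 TPM in replicate 1, and Fezf1, with 13 reads in replicate 2 and 0 in replicate 1, while Hmx3 had 0 reads in both. Thalamus markers summed to 61.17 TPM in replicate 2 and 67.03 TPM in replicate 1, while 2 of 7 were called higher and 1 lower and the median log2 ratio was 0.20. A thalamus marker called higher, which also sets that median, is in the excitatory neuron list too and was counted in both. Choroid plexus markers summed to 35.37 TPM in replicate 2 and 3.17 TPM in replicate 1, of which Ttr, the transthyretin gene, gave 32.43 TPM in replicate 2 and 1.03 TPM in replicate 1. Red blood cell markers summed to 455.82 TPM in replicate 2 and 214.78 TPM in replicate 1. Immediate early genes summed to 40.28 TPM in replicate 2 and 53.91 TPM in replicate 1, with 3 of 9 called lower. The part that any of these lists has in the Penk, Tac1, Sst and Npy differences was not tested.

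**Figure D3:**
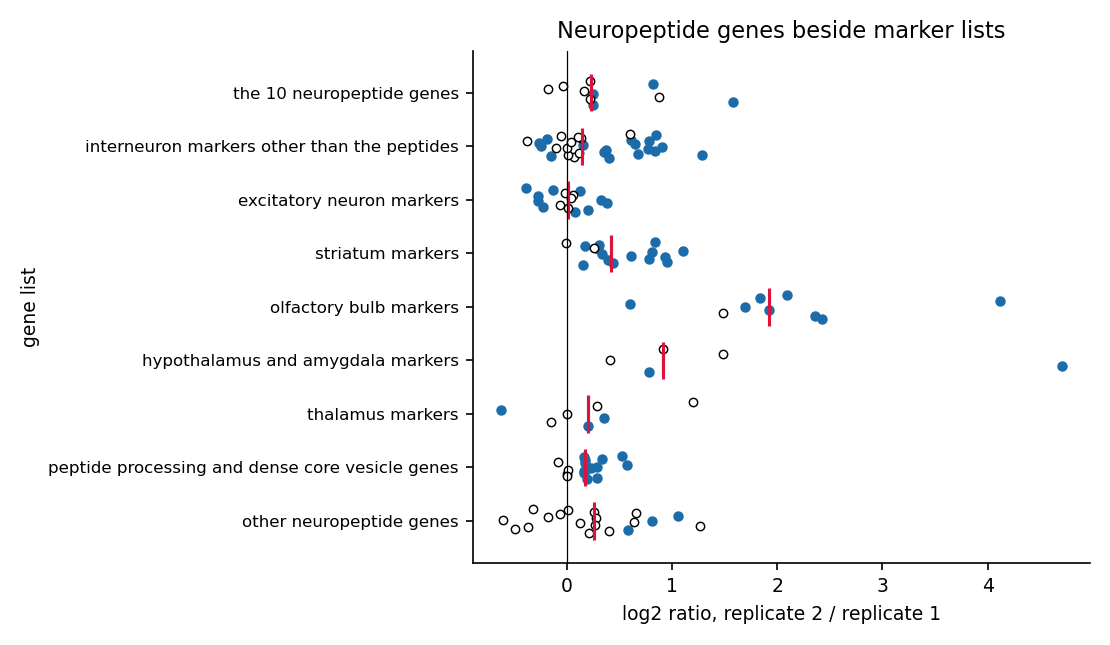
Each point is the log2 ratio of replicate 2 over replicate 1 of 1 tested gene, by list, and red bars are list medians. Filled points were called by the exact binomial test. The olfactory bulb list has the highest median, 1.92, and the medians of the 10 neuropeptide genes and of the interneuron markers are 0.23 and 0.14.

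Of the 23 receptor genes of these peptides, 16 were detected in both libraries, 19 could be tested, and 3 were called higher and 3 lower in replicate 2. Over all tested genes the shares were 13.9% higher and 12.7% lower, so the receptors were called about as often as other genes. Their median log2 ratio was 0.02, and it became -0.13 under spike-in scaling and -0.01 under total-count scaling. The median of all tested genes was -0.15 under spike-in scaling and -0.03 under total-count scaling. Oprl1, the nociceptin receptor gene, was the highest, with 35.34 TPM in replicate 2 and 36.54 TPM in replicate 1. The call of Oprl1 as higher (log2 ratio 0.14) was lost under total-count scaling and its sign turned under spike-in scaling.

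In the somatostatin system 4 of 5 receptor genes were detected. Sstr1 had 27.31 TPM in replicate 2 and 36.06 TPM in replicate 1 and was called lower (log2 ratio -0.33, adjusted p = 2.08e-06, exact binomial test). Sstr2, Sstr4 and Sstr3 had 10.36, 8.89 and 2.73 TPM in replicate 2 and 10.6, 10.59 and 3.26 TPM in replicate 1 and were not called, while Sstr5 stayed under 1 TPM. Sst and Cort together had 148.83 TPM in replicate 2 and 132.4 TPM in replicate 1, beside 49.52 TPM in replicate 2 and 60.8 TPM in replicate 1 for their receptors.

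The neuropeptide Y and cholecystokinin systems had several-fold more peptide RNA than receptor RNA in both libraries. Npy1r had 11.61 TPM in replicate 2 and 16.79 TPM in replicate 1 and was called lower (log2 ratio -0.47, adjusted p = 2.47e-08, exact binomial test). Npy5r and Npy2r were near the detection limit, at 1.24 and 1.26 TPM in replicate 2 and 1.57 and 1.47 TPM in replicate 1. Npy4r had 2 reads in replicate 2 and 1 in replicate 1, and Npy6r had 0 reads in both libraries. A count of 0 still allows 3 counts, or 0.102 CPM for replicate 2 and 0.112 CPM for replicate 1. Cckbr, the brain-type cholecystokinin receptor gene, had 3.17 TPM in replicate 2 and 2.11 TPM in replicate 1 and was called higher (log2 ratio 0.66, adjusted p = 0.0037, exact binomial test). Cckar had 1 read in replicate 2 and 0 in replicate 1.

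The corticotropin-releasing hormone, vasoactive intestinal peptide and opioid systems had more receptor RNA than peptide RNA, in the opioid system only through Oprl1. For Crh the receptor gene Crhr1 had 10.29 TPM in replicate 2 and 12.99 TPM in replicate 1, above Crh itself in both, and it was called lower (log2 ratio -0.26, adjusted p = 0.0211, exact binomial test). Crhbp, which encodes the protein that binds and holds the hormone outside cells, had 3.8 TPM in replicate 2 and 2.87 TPM in replicate 1, also above Crh, and was not called. Vipr1 had 2.88 TPM in replicate 2 and 1.57 TPM in replicate 1 and was called higher (log2 ratio 0.74, adjusted p = 0.000798, exact binomial test), and Vipr2 had 1.53 TPM in replicate 2 and 1.38 TPM in replicate 1. Together they had 4.41 TPM in replicate 2 and 2.95 TPM in replicate 1, beside 1.92 and 2.34 TPM for Vip. In replicate 1 Vip was thus above either receptor gene alone. The 4 opioid receptor genes were all detected, and summed to 44.31 TPM in replicate 2 and 44.62 TPM in replicate 1, against 30.19 TPM in replicate 2 and 15.64 TPM in replicate 1 for the 3 opioid peptide genes. Oprl1 made up most of that receptor sum, since Oprm1, Oprk1 and Oprd1 had 4.74, 2.15 and 2.08 TPM in replicate 2 and 3.85, 2.36 and 1.87 TPM in replicate 1. Penk and Pdyn together exceeded Oprm1, Oprk1 and Oprd1 together in both libraries. They had 21.55 and 4.49 TPM in replicate 2 and 7.36 and 4.31 TPM in replicate 1. Tacr1, the substance P receptor gene, had 2.65 TPM in replicate 2 and 2.52 TPM in replicate 1, below Tac1, while Tacr3 had 0.62 TPM in replicate 2 and 1.01 TPM in replicate 1 and Tacr2 had 0 reads in both.

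**Figure D4:**
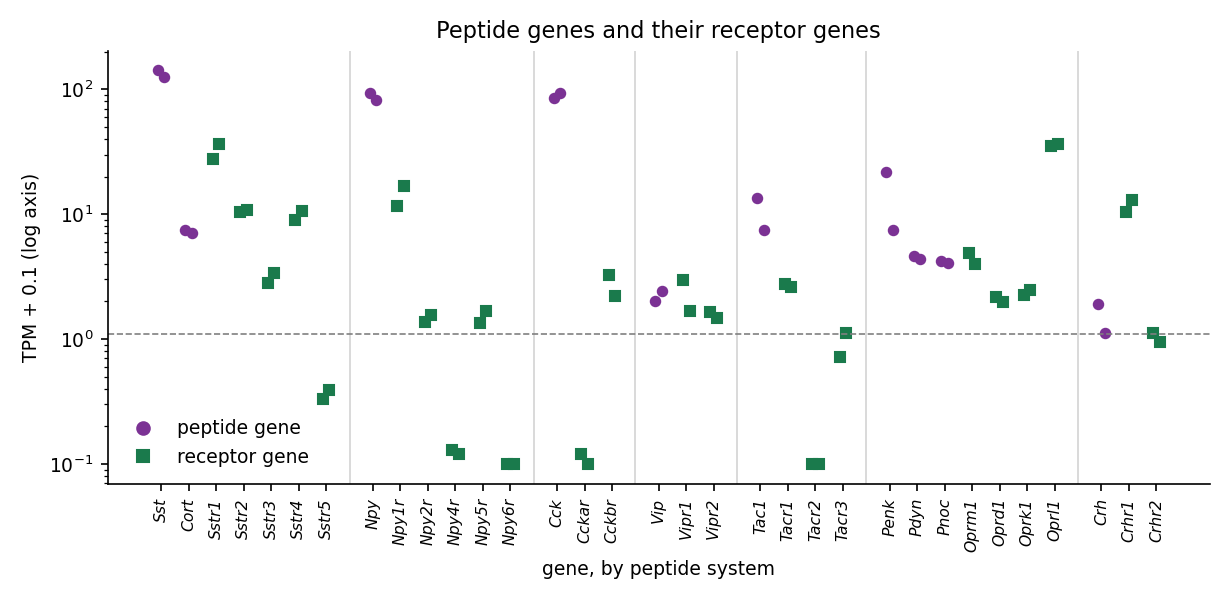
TPM + 0.1 on a log axis for the neuropeptide genes (circles) and their receptor genes (squares), grouped by peptide system, with replicate 2 to the left of replicate 1 for each gene. The dashed line marks a TPM of 1. Sst, Npy and Cck lie above each of their receptor genes, and Crhr1 and Oprl1 lie above Crh and Pnoc.

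The genes that process and store peptides were expressed far above most of the peptide genes. All 16 were detected, with a median of 52.9 TPM. Cpe, the carboxypeptidase that trims the basic residues, had 454.47 TPM in replicate 2 and 419.5 TPM in replicate 1. Scg5, which encodes the chaperone of a convertase, and Prepl, a peptidase-like gene, had 113.87 and 108.47 TPM in replicate 2 and 102.22 and 101.17 TPM in replicate 1. The convertase genes were unequal: Pcsk2 had 45.18 TPM in replicate 2 and 47.34 TPM in replicate 1, while Pcsk1, the lowest of the list, had 2.76 TPM in replicate 2 and 1.85 TPM in replicate 1. Pam, which amidates peptides such as substance P and neuropeptide Y, had 58.12 TPM in replicate 2 and 57.2 TPM in replicate 1.

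Of these 16 genes 12 were called higher in replicate 2 and 0 lower, with a median log2 ratio of 0.17, beside 13.9% and 12.7% over all genes. Calls become easier with more reads, so these shares are not on equal terms. Cpe, with 17597 reads in replicate 2 and 14360 in replicate 1, was called at a log2 ratio of 0.19. Pnoc, with 123 reads in replicate 2 and 98 in replicate 1, was not called at 0.22. The largest ratios among the called genes were 0.57 for Pcsk1, 0.53 for Scg2, which encodes a granin of the vesicle core, and 0.34 for Vgf, another granin gene. Under spike-in scaling the count was 6 higher and 3 lower, beside 3.62% and 30.8% over all genes. The list median was then 0.03, beside -0.15 over all tested genes. Sums were 1304.66 TPM in replicate 2 and 1210.73 TPM in replicate 1. Among 6 regulators outside the receptor list, Ece1, a peptide-cleaving enzyme gene, had the highest level, with 25.34 TPM in replicate 2 and 24.74 TPM in replicate 1.

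Against 33 other neuropeptide genes, Sst, Cck and Npy were the highest 3 of 43 by mean TPM, followed by Nucb2, the nesfatin precursor gene, Grp, the gastrin-releasing peptide gene, and Penk. Nucb2 had 21.49 TPM in replicate 2 and 19.31 TPM in replicate 1, Grp had 18.98 TPM in replicate 2 and 17.6 TPM in replicate 1, and Adcyap1, the PACAP gene, had 11.58 TPM in replicate 2 and 12.01 TPM in replicate 1. Penk had 21.55 TPM in replicate 2, just above Nucb2, and 7.36 TPM in replicate 1, below Adcyap1. Its place in the order thus differed between the libraries. Vip ranked 18 and Crh 22 of the 43. Of the 33, 12 were detected, whereas each of the 10 genes was. The 10 were chosen as genes known from cortical neurons, so this contrast follows in part from the choice. Of 19 tested, 3 were called higher in replicate 2 and 0 lower, beside 13.9% and 12.7% of all tested genes, so the share called higher was near that of other genes. The called genes were Trh, the thyrotropin-releasing hormone gene (log2 ratio 1.06), Nmb, the neuromedin B gene (0.81), and Nts, the neurotensin gene (0.59), and the call of Nmb was lost under spike-in scaling and in the other quantification. At the low end of the list, Hcrt had 1 read in replicate 2 and 0 in replicate 1, Pmch had 1 read in each, and Rln3 had 0 in both.

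Sst, Npy, Crh and Cort each have 1 annotated transcript, so for these genes the gene and transcript levels are the same. For the other 6 the deposited tables split the gene into transcripts by an alignment-based quantification, which gives each transcript's percent of its gene, and by the other quantification. In Tac1 the transcripts that encode both tachykinin cores, Tac1-203 and Tac1-205, held 79.6% of the gene in replicate 2 and 72.8% in replicate 1, and 85.5% in replicate 2 and 87.5% in replicate 1 of the other quantification. Tac1-201, which encodes 1 core, held 17.9% in replicate 2 and 25.1% in replicate 1, but 0% in both libraries of the other quantification. Transcripts with both cores were thus the larger share by either count. Penk-201, with the complete precursor, held 80.0% in replicate 2 and 84.4% in replicate 1, and 100% in the other quantification.

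The leading transcript was not settled for Tac1, Cck and Pnoc. In Tac1 the alignment-based quantification gave Tac1-203 45.24% in replicate 2 and 36.51% in replicate 1, just above Tac1-205 in replicate 1 (36.31%), and the other quantification put Tac1-205 first in both libraries. Cck-201 and Cck-203, which encode the same precursor of 115 residues, together held 81.7% of Cck in replicate 2 and 77.1% in replicate 1, and 66.5% in replicate 2 and 63.5% in replicate 1 of the other quantification. Cck-201 alone held 71.6% in replicate 2 and 65.5% in replicate 1, whereas the other quantification gave it 26.2% in replicate 2 and 27.9% in replicate 1. Pnoc-201, with the precursor of 187 residues, held 32.5% in replicate 2 and 20.97% in replicate 1, but 64.9% in replicate 2 and 73.8% in replicate 1 of the other quantification. The order of Pnoc-201 and Pnoc-202, which encodes 212 residues, thus turned with the method. Vip-201 held 86.2% in replicate 2 and 90.3% in replicate 1, and Pdyn-201 held 97.55% in replicate 2 and 90.52% in replicate 1.

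**Figure D5:**
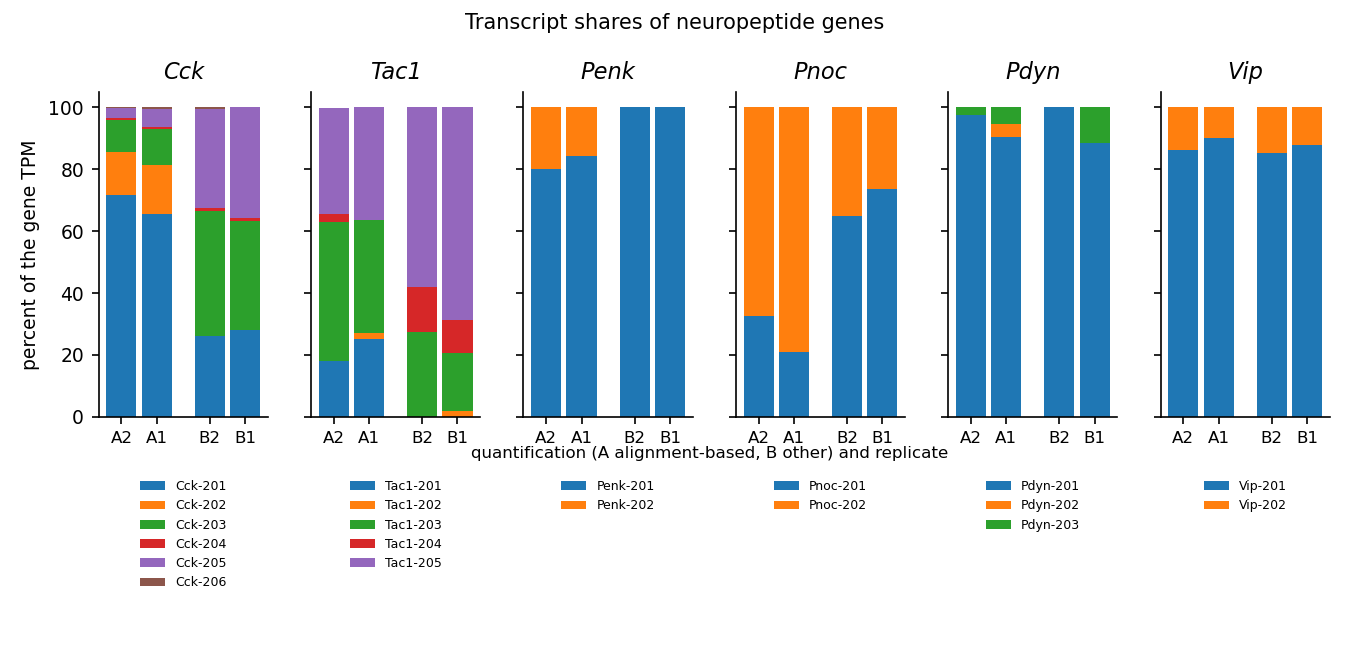
Stacked bars give each transcript's percent of its gene for the 6 neuropeptide genes with more than 1 annotated transcript. A2 and A1 are replicates 2 and 1 of the alignment-based quantification, and B2 and B1 those of the other. Tac1, Cck and Pnoc have a different leading transcript in A and B, and Penk-201 and Vip-201 lead in both.

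The somatostatin promoter is the textbook site of the cyclic AMP response element, the motif TGACGTCA bound by CREB. RefSeq promoters of build GRCm38.p6, from 250 bases before to 50 bases after the start site, were at hand for 7 of the 10 genes. The full motif, searched on both strands, was in 1.79% of 32851 promoters, and of the 7 genes Sst had it, with its first base at position -48. The 7 letters TGACGTC, which the full motif contains, were in 3.21% of promoters, and Vip also had them, at position -79. The windows below are chr16:23890874-23890903 on the minus strand for Sst and chr10:5639127-5639156 on the plus strand for Vip, with capitals on the motif.
Sst promoter: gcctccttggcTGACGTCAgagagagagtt
Vip promoter: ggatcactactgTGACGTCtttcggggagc

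The 5 letters TGACG were in 20.8% of promoters and, besides Sst and Vip, in those of Cck, Cort and Tac1, and they were not in those of Npy and Pdyn. The genes with the 7 letters, Sst and Vip, stood 5.91 apart on the log2 scale. For Sst the GENCODE gene starts 114 bases upstream of the RefSeq start site, so the Sst window lies inside the first exon of that annotation. A match is a run of letters and no measure of binding.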

How the data were processed

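Total RNA-seq of 2 libraries was used, 1 for each mouse, and group and replicate number come from the labels. The authors deposited a gene table whose expected counts, TPM, posterior mean TPM and bounds of a TPM interval (a signal on the TPM scale) were read. An alignment-based transcript table with each transcript's percent of its gene, and a further transcript table with estimated counts and TPM, were also deposited by the authors. That further table is called the other quantification. Per the submitters' notes the build is mm10 and the annotation GENCODE M21. The sources used here name no aligner, quantifier, version or strand setting for counting, so reads of Penk and its antisense neighbour may not be told apart.

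Spike-in rows (97, with 0.351% of counts in replicate 2 and 0.323% in replicate 1) and 26248 numeric rows (2 and 6 reads) were left out of library sizes and tests. Ratios are replicate 2 over replicate 1 of expected counts plus a prior of 0.5 after TMM scaling (edgeR 4.0.16, R 4.3.3), and their errors and 95% intervals cover counting only. Rounded counts of genes with at least 10 counts in total entered a two-sided exact binomial test (scipy 1.17.1). Genes were called at a Benjamini-Hochberg adjusted p under 0.05. The rule was tried on simulated counts that held counting noise only. These libraries differed by more than that, so the simulation cannot give the rate of false calls here. Gene pairs were compared as log2(TPM + 0.1), called where the sign was shared by both libraries and the mean was above 2 SD. An exact sign test over 2 animals cannot give a p below 0.5, so levels carry none. Of each list of genes, the 3 highest, the lowest detected and up to 3 called genes with the largest ratios were open to be named, receptors were described by system, and Dlx1, Pvalb, Hmx3, Crhbp, Hcrt, Pmch, Rln3, Pcsk2, Pam and the receptors outside that rule were added after their values were seen. The 10 genes, the lists and the pairs were chosen with earlier results of these data known, in part those on the olfactory bulb and striatum markers. Alternatives were other scalings (total counts, DESeq2 1.42.0 size factors, ERCC spike-ins), filters, prior counts and pseudocounts, protein-coding genes only, posterior means and the other quantification. A gene of the excitatory neuron list is not reported here by name.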

Additional observations from a re-analysis of the deposited data

How the results depend on the processing

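The 10 genes summed to 354.53 TPM on average, and to 629.099 TPM in the other quantification and 668.598 TPM when TPM was rescaled to protein-coding genes, which raises every level by its construction. Either library alone gave 374.53 (replicate 2) or 334.53 (replicate 1). At a detection threshold of 5 TPM, 6 of the 10 genes were detected. The cause of the difference between the quantifications was not tested.

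Sst, Npy, Tac1 and Penk were called higher and 0 genes lower in every alternative but spike-in scaling, where 2 were called higher (Tac1, Penk) and 1 lower (Cck). The prior count does not enter the test, so it could not change a call. The count filters changed only the set of genes that the p-values were adjusted over. The log2 ratio of Cck was 0.051 in the other quantification (adjusted p = 0.682, exact binomial test), where it was -0.03 in the gene table. Over all genes the calls were 2841 higher and 2595 lower with TMM, 2209 and 3063 with total counts, and 738 and 6274 with spike-ins, whose size factors rest on 0.351% of counts in replicate 2 and 0.323% in replicate 1. Of the 9 gene pairs 5 were called, and 4 in the other quantification, where Pdyn over Pnoc was lost. Tac1 over Penk ranged from -0.68 without replicate 1 to 0.0096 without replicate 2. Leaving out a library gives no ratio between libraries. No paired analysis was possible because there is only 1 group. The reads behind Crh, Vip, Cort, Pnoc and Pdyn limit what could be detected in them.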
